A study of Mus musculus with 4 samples.

Results

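The genes that control passage from G1 into S phase were examined as a set of 9: the D-type cyclins Ccnd1, Ccnd2 and Ccnd3, the kinases Cdk4 and Cdk6, and the CDK inhibitors Cdkn1a (p21), Cdkn1b (p27), Cdkn2a (p16 and p19Arf) and Cdkn2b (p15). They were chosen by name, and each had a row in all 4 libraries among the 31053 genes counted. The study sorted live EPCAM+ cells from 3 prostate lobes of P2-Runx1:RFP mice, anterior (AP), dorsolateral (DLP) and ventral (VP), in which the proximal P2 promoter of Runx1 directs a red fluorescent protein, and separated RFP+ from RFP- cells. All animals were ICR (CD-1), adults were more than 8 weeks old, and castrated mice were taken more than 4 weeks after surgery. Cells were pooled over mice, each sorted population received a lipid-tagged MULTI-seq barcode, and the populations of a run were sequenced together as 1 10x Genomics 3′ library. Runs 1, 2 and 3 held intact AP, DLP and VP cells. Run 2 also held castrated cells lobe by lobe, and run 1 held castrated cells with the lobes pooled. The fourth library held EPCAM+ cells of urogenital sinus (UGS) explants, dissected at E15.5 and cultured in 10 µM dihydrotestosterone, at days 0, 1, 3 and 6. RFP reads out P2 activity in a reporter mouse, so RFP- cells are not Runx1-null.

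The D cyclins bind CDK4 or CDK6, and the kinase so formed phosphorylates the retinoblastoma protein, which releases E2F factors and lets cells enter S phase. The INK4 proteins encoded by Cdkn2a and Cdkn2b bind CDK4 and CDK6 directly, whereas the CIP/KIP proteins p21 and p27 restrain the cyclin-bound kinases and CDK2. Cyclin D1 is a target of many growth signals, p21 is a classical target of p53, and p27 is abundant in resting epithelium. In the adult prostate, most secretory luminal cells are at rest and depend on androgen, and basal cells line the duct beneath them.

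The libraries held 2612, 6034 and 3028 adult cells for runs 1 to 3 and 7474 explant cells, with 35051876, 86381807, 40087244 and 121090404 unique molecular identifiers (UMIs) in turn. After filtering and barcode assignment 824, 2194, 1673 and 5198 cells remained, with median UMIs per cell of 13055, 10619, 9750 and 14785. Pairs of libraries shared 0 to 6 cell barcodes. The barcode of intact DLP RFP+ cells failed in runs 1 and 2, so that population has run 3 only. Cells were clustered without the 9 genes and classed as basal-like or luminal-like from keratin and lobe markers. Epithelial cells numbered 678, 1805 and 1633 in runs 1 to 3, counting 32 cells of a cluster that was given neither class. The rest of the EPCAM+ gate included hematopoietic-like, endothelial-like and fibroblast-like cells. Counts were summed per run, sorted population and class where at least 10 cells were present. Levels are given as CPM, counts scaled to a common total, on library sizes scaled by the trimmed mean of M-values (TMM), and as 3′ tag counts they are compared between populations, not between genes. A sum cannot tell fewer expressing cells from less RNA per cell.

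On GRCm38, the build to which the files were mapped, Ccnd1 spans chr7:144929931-144939925 (- strand), Ccnd2 chr6:127125162-127152193 (-), Ccnd3 chr17:47505051-47599691 (+), Cdk4 chr10:127063534-127067920 (+), Cdk6 chr5:3341485-3531008 (+), Cdkn1a chr17:29090976-29100727 (+) and Cdkn1b chr6:134920401-134925513 (+). Cdkn2b (chr4:89306299-89311039) and Cdkn2a (chr4:89274471-89294653) lie side by side on the - strand. Cdkn1a and Cdkn2a each have a pair of transcription starts in RefSeq. The 250 bases before each start are shown because Cdkn1a passed the test in more of the comparisons than any other member, and because 3′ counts of Cdkn2a cannot separate the p16 and p19Arf transcripts. Capitals mark the motifs found on either strand: the p53 response element in the first, GC boxes (GGGCGG) in the second, and an E2F site (TTTCCCGC) with GC boxes in the third. The fourth held none of the motifs searched. Sequences are from RefSeq (GRCm38.p6), and the promoters of Ccnd1 and Ccnd2 were not analysed here.
Cdkn1a upstream start, chr17:29090729-29090978 (+): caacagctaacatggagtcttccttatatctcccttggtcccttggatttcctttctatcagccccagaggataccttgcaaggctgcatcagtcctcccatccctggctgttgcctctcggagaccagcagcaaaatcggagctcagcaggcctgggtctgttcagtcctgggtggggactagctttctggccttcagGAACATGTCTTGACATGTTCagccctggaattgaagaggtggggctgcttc
Cdkn1a downstream start, chr17:29093519-29093768 (+): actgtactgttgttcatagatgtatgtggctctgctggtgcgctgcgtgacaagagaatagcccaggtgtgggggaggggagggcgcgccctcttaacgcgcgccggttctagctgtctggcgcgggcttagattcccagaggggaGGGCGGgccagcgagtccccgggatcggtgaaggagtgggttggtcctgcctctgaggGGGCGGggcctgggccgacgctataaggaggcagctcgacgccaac
Cdkn2a upstream start, chr4:89294620-89294869 (-): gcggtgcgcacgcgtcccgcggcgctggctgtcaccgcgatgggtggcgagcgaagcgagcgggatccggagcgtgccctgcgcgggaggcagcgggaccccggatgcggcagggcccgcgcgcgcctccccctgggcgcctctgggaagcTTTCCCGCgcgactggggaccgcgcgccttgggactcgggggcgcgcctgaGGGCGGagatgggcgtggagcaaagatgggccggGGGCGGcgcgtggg
Cdkn2a downstream start, chr4:89282193-89282442 (-): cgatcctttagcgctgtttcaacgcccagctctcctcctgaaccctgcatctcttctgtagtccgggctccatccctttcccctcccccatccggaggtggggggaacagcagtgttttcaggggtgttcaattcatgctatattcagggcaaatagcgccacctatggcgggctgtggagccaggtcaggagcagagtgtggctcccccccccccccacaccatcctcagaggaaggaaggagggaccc
The p53 element, scored as the consensus with at most 1 mismatch, began 51 bases before the upstream Cdkn1a start. It was found in 0.0578% of 32851 promoter windows of the same length, compared with 32.7% for the GC box and 1.86% for any of the E2F sites TTTCCCGC, TTTGGCGC, TTTCGCGC and TTTGCCGC. The RUNX core TGTGGT was present in 14.0% of windows, and among the members' windows examined it was matched only in that of Cdk4. AP-1 sites (TGANTCA, 6.75% of windows) and E-boxes (CACGTG, 6.02%) were also searched, and none of these 4 windows held one. A match of letters describes the sequence and does not show that a factor binds there.

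Among the D cyclins, Ccnd1 and Ccnd2 differed in opposite directions between RFP+ luminal cells of the AP and VP, and Ccnd3 varied little. Ccnd1, cyclin D1, was measured in AP RFP+ luminal cells at 150.1, 131 and 159 CPM in runs 1, 2 and 3. AP RFP- luminal cells had 42.1, 30.7 and 33.2 CPM, so the RFP+ and RFP- sums did not overlap in any run. DLP RFP- cells had 43.3, 17.8 and 31.9 CPM, and the single DLP RFP+ sum had 23.7 CPM. VP RFP+ cells were lowest, at 10.6, 6.22 and 3.81 CPM, and VP RFP- cells had 18.4, 25 and 11.9 CPM. The order of the group means (± SD, n = 3 runs) was thus AP RFP+ (147 ± 14.1), AP RFP- (35.3 ± 5.98), DLP RFP- (31.0 ± 12.8), VP RFP- (18.4 ± 6.53) and VP RFP+ (6.88 ± 3.46). AP RFP- and DLP RFP- overlapped between runs, as did DLP RFP- and VP RFP-.

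Ccnd2, cyclin D2, was lower in the AP than in the VP in both RFP+ and RFP- luminal cells, whereas Ccnd1 was higher in the AP among RFP+ cells. Within AP luminal cells both were higher in RFP+ cells. It was measured at 102, 182 and 272 CPM in VP RFP+ luminal cells and 122.5, 232 and 157 CPM in VP RFP- cells. AP RFP+ cells had 35.1, 81.3 and 32.9 CPM and AP RFP- cells had 10.8, 21.5 and 1.51 CPM, the lowest of the luminal populations and without overlap with any other luminal population of the AP or VP. DLP RFP- cells were uneven, at 18.6, 129 and 8.43 CPM, and the DLP RFP+ sum of run 3 had 142 CPM. The run 2 DLP RFP- sum included 14 and 9 cells of the clusters that hold VP luminal cells, and 62 of the 73 Ccnd2 UMIs of AP RFP- cells in run 2 came from 21 cells of a VP cluster. For AP RFP- cells, therefore, the run 2 level rests largely on a few VP-type cells. The AP RFP+ luminal sum of run 2 also included 12 of 98 cells of that cluster.

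Ccnd3, cyclin D3, had group means between 38.1 and 59.6 CPM in luminal cells. It was 59.7, 42.6 and 32.5 CPM in AP RFP+ cells against 56.9, 40.7 and 30.2 CPM in AP RFP- cells, close to equal within each run. Run 1 gave the highest Ccnd3 and Cdk4 values in most populations.

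**Figure D1:**
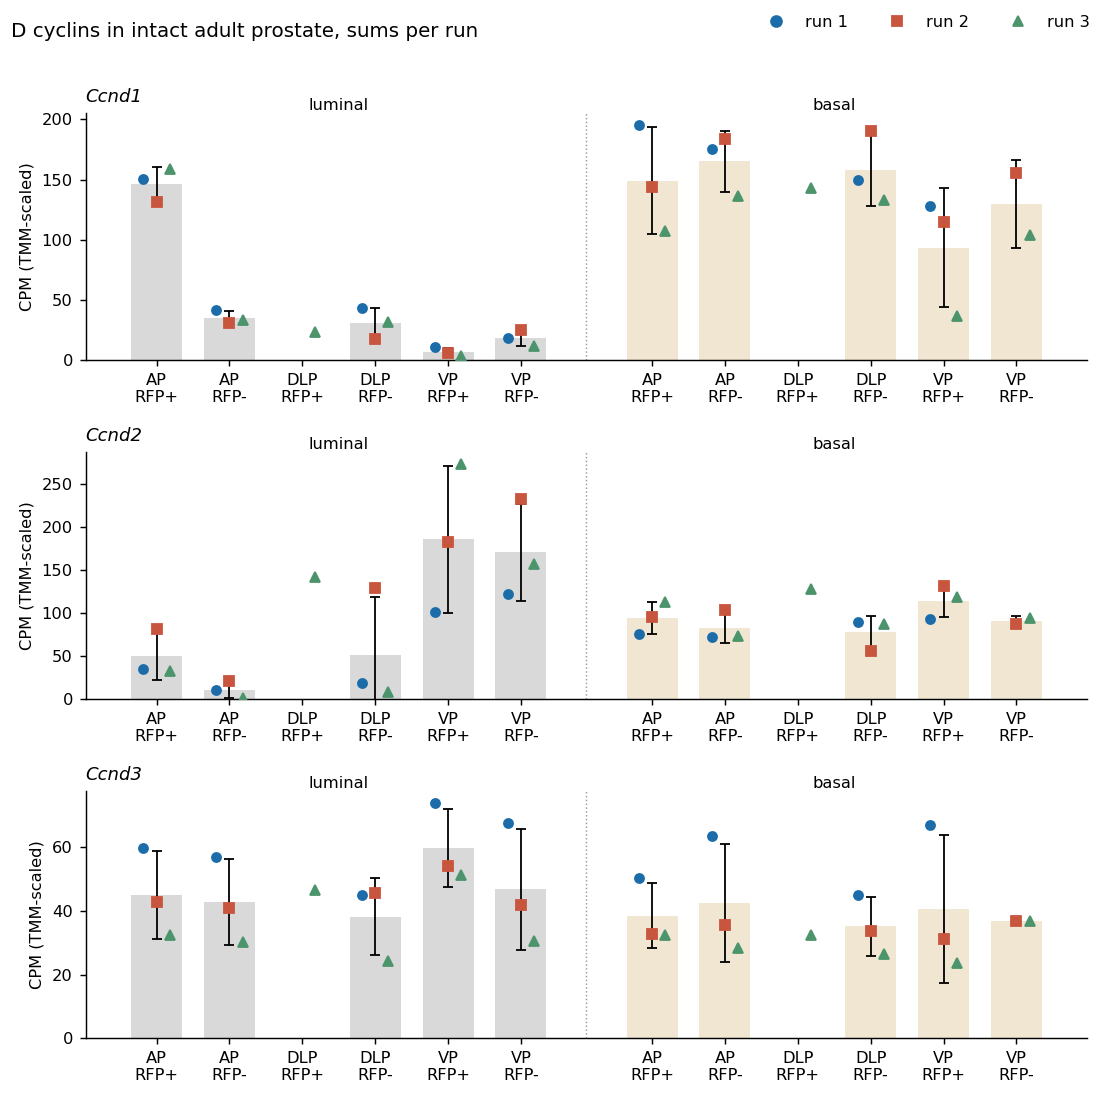
Ccnd1, Ccnd2 and Ccnd3 levels (CPM on TMM-scaled library sizes) in each intact sorted population, split into luminal-like and basal-like cells; points are runs, bars are means over runs and error bars are the SD between runs, with points alone where a population has 1 run. Luminal Ccnd1 was highest in AP RFP+ cells (147 CPM) and lowest in VP RFP+ cells (6.88 CPM), and luminal Ccnd2 was highest in the VP.

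The detection of the D cyclins in single cells followed these levels. UMIs of Ccnd1 without Ccnd2 were found in 97 of 204, 26 of 98 and 65 of 145 AP RFP+ luminal cells of runs 1 to 3, and UMIs of Ccnd2 without Ccnd1 in 14, 20 and 11. Both were found in 48, 30 and 20 of these cells and neither in 45, 22 and 49, so in run 2 the AP cells with only 1 of the cyclins were split almost evenly between Ccnd1 and Ccnd2. In VP RFP+ luminal cells Ccnd2 without Ccnd1 was found in 30 of 51, 124 of 190 and 105 of 147 cells, and Ccnd1 without Ccnd2 in 3, 5 and 6. VP luminal cells carry more UMIs, so cells were also thinned to 5000 UMIs each, which left out 7, 10 and 17 AP RFP+, 3, 11 and 4 AP RFP- and 3, 2 and 5 VP RFP+ cells of runs 1 to 3 with fewer. Ccnd1 was then detected in 46.7, 46.6 and 44.5% of AP RFP+ luminal cells, 15.49, 13.5 and 16% of AP RFP- cells and 6.25, 2.66 and 3.52% of VP RFP+ cells. Without thinning these shares were 71.1, 57.1 and 58.6%, 33.8, 36.1 and 34.5% and 13.7, 11.6 and 8.16%, in the same order. Ccnd2 was detected in 27.1, 35.1 and 34.5% of thinned VP RFP+ cells and in 5.63 and 2.26% of AP RFP- cells of runs 1 and 2, with none in 25 cells of run 3, which allows a share of up to 12%. Without thinning the Ccnd2 shares were 66.7, 74.2 and 75.5% in VP RFP+ and 9.46, 11.8 and 3.45% in AP RFP- cells. No cell type known to lack these genes was present, and the lowest share in each run is therefore the most that free RNA can have given in those cells.

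The reporter contrast in AP luminal cells changed 5 of the 7 members tested, all higher in RFP+ cells. Ccnd1 was raised by 2.06 ± 0.19 (log2 fold change ± SE, edgeR adjusted p = 3.01e-04) and Ccnd2 by 1.81 ± 0.52 (adjusted p = 0.0316). Cdk6, the partner kinase of the D cyclins, rose by 2.81 ± 0.27 (adjusted p = 3.39e-04). Both CIP/KIP inhibitors were also higher, Cdkn1a by 2.68 ± 0.38 (adjusted p = 0.00127) and Cdkn1b by 0.65 ± 0.18 (adjusted p = 0.0288). Ccnd3 (0.06 ± 0.28, adjusted p = 0.91) and Cdk4 (-0.20 ± 0.18, adjusted p = 0.462) did not pass. Cdkn2a and Cdkn2b were below the count filter and were not tested. Over all 8925 genes tested, 25.3% were called in this contrast, 13.5% higher and 11.9% lower in RFP+ cells, so calls were frequent in general. The Cdkn1b call was lost with DESeq2 (adjusted p = 0.0796), without any 1 of the runs (0.0938 to 0.149), with no count filter (0.0502) and with classes set by Krt5, Krt14 and Trp63 UMIs alone (0.0616). The Ccnd2 call was lost without run 1 (1.82, adjusted p = 0.0718) and without run 3 (1.75, adjusted p = 0.0595).

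Several other measures moved with this contrast. AP RFP+ luminal cells were mostly of a Psca- and Krt4-rich cluster (86.3, 80.6 and 89.7% in runs 1 to 3), whereas AP RFP- cells were mostly of a Tgm4-rich cluster (87.8, 81.9 and 89.7%), so the reporter and the luminal cluster cannot be told apart. On all UMIs of a cluster, Ccnd1 was 254, 251 and 224 CPM in the Psca cluster and 38.9, 32 and 34.3 CPM in RFP- cells of the Tgm4 cluster. The 23 RFP+ cells of the Tgm4 cluster in run 1 had 57.8 CPM of Ccnd1, 10.2 of Cdk6 and 30.6 of Cdkn1a. The 6 basal markers, all detected in both fractions, summed to 962 to 1940.1 CPM in RFP+ and 87.5 to 422 CPM in RFP- luminal cells, against 8057 to 8871 CPM in basal cells, and most of this was Krt15 (means 1336 and 214). The defining basal genes were lower, Krt5 at 16.2 and 7.78 CPM and Trp63 at 2.23 and 0.466 CPM. Immediate early and heat shock genes that cell dissociation can raise summed to 7660.5 to 12125 CPM in RFP+ and 4943 to 6918 CPM in RFP- cells, the 12 hematopoietic markers (9 and 6 detected) to 37.8 to 247 and 87.7 to 137 CPM, and median UMIs per cell were 9982 to 13502 and 18838 to 22704. Their part in the result was not tested.

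In VP luminal cells none of the 7 members passed between RFP+ and RFP- cells, and 0.302% of all 7945 genes did. Ccnd1 had the largest difference, in the opposite direction to the AP (-1.66 ± 0.41, adjusted p = 0.261), and it passed when the run was entered as a replicate block (adjusted p = 0.02). The other members lay between -0.28 and 0.44. The difference between the reporter effects of the 2 lobes was tested as an interaction, which called 4.94% of 9716 genes, 3.06% with the larger and 1.88% with the smaller effect in the AP. It was 3.76 ± 0.42 for Ccnd1 (adjusted p = 4.95e-04), 2.40 ± 0.47 for Cdk6 (0.0112) and 2.82 ± 0.74 for Cdkn1a (0.0453), each with the larger RFP+ effect in the AP. For Ccnd2 it was 1.77 ± 0.71 (adjusted p = 0.181, and 0.0409 with the replicate block). Without run 2 no member passed this test (Ccnd1 3.22, adjusted p = 0.13), and without run 3 only Ccnd1 did (3.55, adjusted p = 0.0221).

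Luminal cells of the same RFP fraction were then compared between lobes. Among RFP- cells, 3 members were lower in the AP than in the VP, where 16.3% of 7248 genes were called, 7.64% higher and 8.61% lower in the AP. These were Ccnd2 (-3.67 ± 0.45, adjusted p = 6.81e-04), Cdkn1a (-2.22 ± 0.46, adjusted p = 0.00929) and Cdkn1b (-0.73 ± 0.22, adjusted p = 0.0497). Without run 2 the Cdkn1a difference was -1.32 (adjusted p = 0.154). The Cdkn1b direction depended on scaling: with all UMIs as library size it was 33.5 CPM in the AP and 27.0 CPM in the VP. The 10 most abundant genes take most UMIs of VP luminal cells, and this choice moves log2 CPM there by -0.861 in RFP+ and -0.880 in RFP- cells, against 0.260 and 0.108 in the AP. Cdk6 was -1.48 ± 0.46 (adjusted p = 0.0567) and passed with the replicate block (-1.64, adjusted p = 0.0101). Ccnd1 did not pass between these cells (0.79 ± 0.29, edgeR adjusted p = 0.0928), and 1 of 10 alternative settings called it. Between AP and DLP RFP- cells, where 1.12% of 7972 genes were called, only Cdkn1a passed (-2.0 ± 0.28, adjusted p = 0.0131), and it did not without run 2 (adjusted p = 0.257) or run 3 (0.0971). The replicate block added Ccnd2 (-2.23, adjusted p = 1.81e-05, against -1.94 and 0.485 without it) and Cdk6 (-1.51, adjusted p = 0.00486, against -1.36 and 0.242).

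Among RFP+ luminal cells, which include the same AP RFP+ sums, the AP had more Ccnd1 and Cdk6 and less Ccnd2 than the VP. The difference was 4.55 ± 0.30 for Ccnd1 (adjusted p = 1.97e-04), 0.91 ± 0.17 for Cdk6 (adjusted p = 0.00592) and -1.92 ± 0.44 for Ccnd2 (adjusted p = 0.0136), where 27.6% of 9565 genes were called. Cdkn1a differed by 0.61 (adjusted p = 0.345), and Ccnd3 by -0.36, which passed only with the replicate block (-0.41, adjusted p = 0.0311). Without run 3 neither Ccnd2 (-1.31, adjusted p = 0.141) nor Cdk6 (0.83, adjusted p = 0.0986) passed, and Cdk6 did not without run 2 (0.79, adjusted p = 0.0842).

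**Figure D2:**
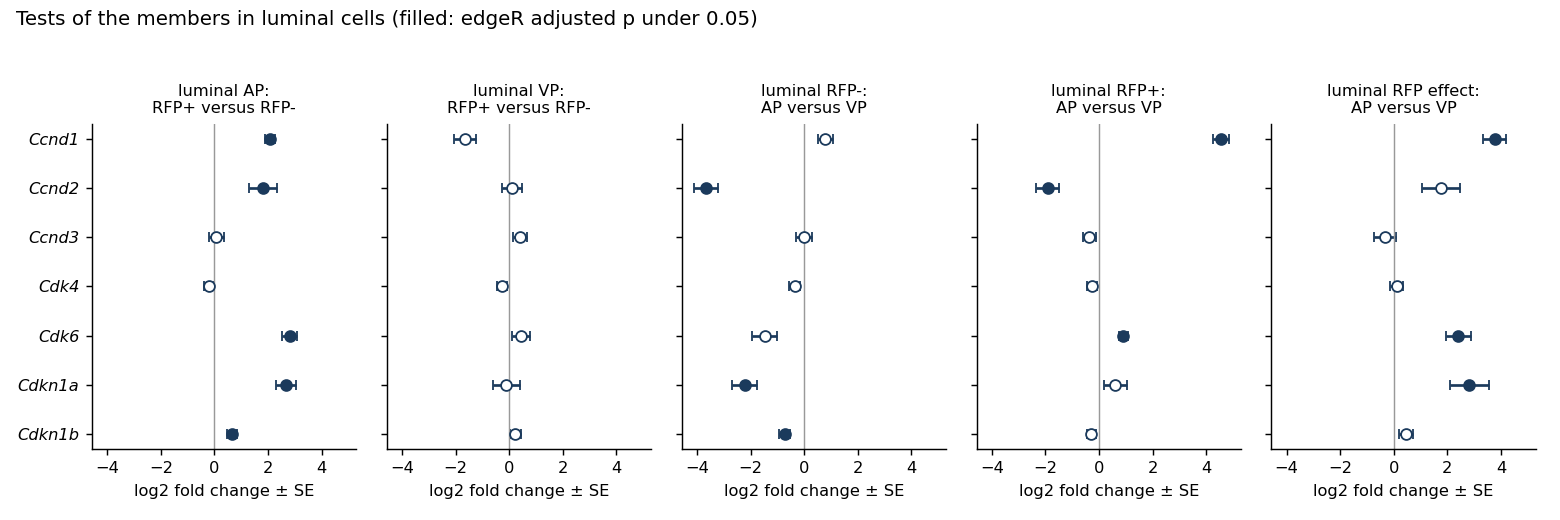
Log2 fold changes (± SE) of the tested members in 5 luminal comparisons, with filled points for an edgeR adjusted p under the threshold. Ccnd1 and Cdk6 were filled in the AP reporter contrast (2.06 and 2.81), in the RFP+ AP versus VP contrast (4.55 and 0.91) and in the difference of reporter effects (3.76 and 2.40).

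Of the kinases, Cdk6 carried the variation and Cdk4 was even. Cdk6 was 55.3, 53.1 and 54.4 CPM in AP RFP+ luminal cells, with little spread between runs (SD 1.09), and 10.8, 7.08 and 3.02 CPM in AP RFP- cells. DLP RFP- cells had 32.5, 16.2 and 14.5 CPM and the DLP RFP+ sum 31.5 CPM. VP cells had 36.9, 26.1 and 26.6 CPM when RFP+ and 42.9, 15.1 and 18.7 CPM when RFP-. AP RFP+ cells were therefore above every other luminal sum and AP RFP- cells below. Cdk4 ranged only from 44.6 to 85.7 CPM over all luminal sums, and passed in none of the comparisons.

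Cdkn1a, which encodes p21, was lowest in AP RFP- luminal cells. It was 15.9, 16.2 and 7.54 CPM there, against 54.4, 88.5 and 135 CPM in AP RFP+ cells. DLP RFP- cells had 48.0, 47.0 and 74.1 CPM, the DLP RFP+ sum 82.6 CPM, VP RFP+ cells 37.5, 102 and 40.2 CPM and VP RFP- cells 33.7, 111 and 30.6 CPM. All other luminal sums lay above the AP RFP- range, and the VP sums of run 2 stood above those of runs 1 and 3. Cdkn1b, which encodes p27, was 48.3, 57 and 43.0 CPM in AP RFP+ and 29.2, 35.4 and 28.7 CPM in AP RFP- luminal cells. VP cells had 57.5, 60.1 and 65.3 CPM when RFP+ and 36.7, 52.9 and 61.3 CPM when RFP-, which overlapped.

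The INK4 genes were close to undetected. Cdkn2a had 7, 23 and 1 UMIs in VP RFP+ luminal cells and 1, 12 and 3 in VP RFP- cells, or 3.04 ± 2.40 and 5.05 ± 1.96 CPM, and 0 to 2 UMIs in each AP and DLP luminal sum. The 3-count limit of those sums was 0.609 to 4.64 CPM, so the lobes cannot be ordered for Cdkn2a in the smaller sums. No Cdkn2a UMI was found in 525 AP RFP+, 309 AP RFP-, 330 DLP RFP+ and 306 DLP RFP- basal cells. Cdkn2b reached 5, 14 and 4 UMIs in VP RFP+ luminal cells and 9, 2 and 1 in AP RFP+ cells.

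**Figure D3:**
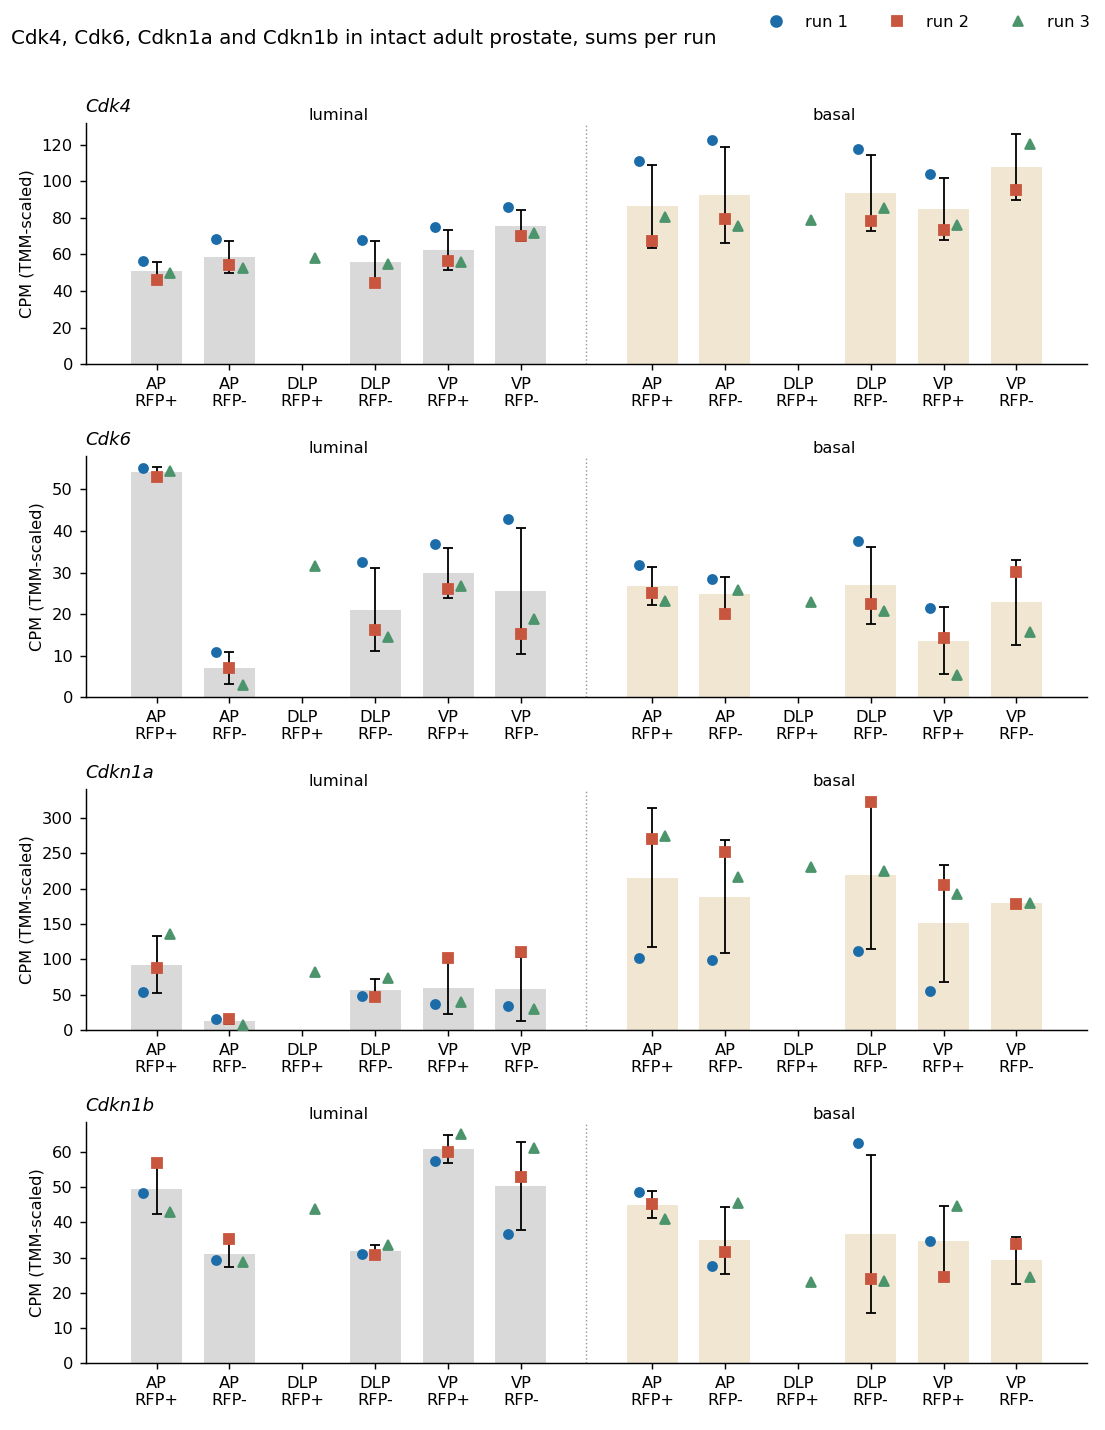
Levels (CPM on TMM-scaled library sizes) of Cdk4, Cdk6, Cdkn1a and Cdkn1b in each intact sorted population, split into luminal-like and basal-like cells; points are runs, bars are means over runs and error bars are the SD between runs, with points alone where a population has 1 run. Luminal Cdk6 was 54.3 CPM in AP RFP+ and 6.95 CPM in AP RFP- cells, and luminal Cdkn1a was 92.8 and 13.2 CPM.

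Basal cells were far more alike between populations. Basal Ccnd1 was 196, 144 and 107 CPM in AP RFP+, 175, 184 and 136 CPM in AP RFP- and 150, 191 and 133 CPM in DLP RFP- cells. VP RFP+ basal cells had 128, 115 and 36.9 CPM, the last from 14 UMIs. Basal Cdkn1a was 102, 270.4 and 274 CPM in AP RFP+ and 98.6, 251 and 216 CPM in AP RFP- cells, and run 1 was lowest in every basal population that it held. No member passed between RFP+ and RFP- AP basal cells by edgeR (-0.16 to 0.34, all adjusted p = 1), and 0% of 8641 genes did, with 88 at an unadjusted p under 0.05 and 1 call by DESeq2. Between AP and VP RFP+ basal cells 0.266% of 7885 genes (0.0254% higher and 0.241% lower in the AP) and no member passed. The replicate block there called Ccnd1 (0.65, adjusted p = 0.0125) and Cdkn1a (0.53, adjusted p = 0.0142), both higher in the AP.

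The classes were drawn from the same cells' expression, so basal and luminal levels are compared as a description. Basal and luminal runs did not overlap for 14 of 36 pairs of member and population in the 4 populations with 3 runs of both classes. For the background, only genes averaging 20 CPM or more were counted. Basal cells were higher without overlap for 22.5% of these in AP RFP+, 27.7% in AP RFP-, 25.8% in DLP RFP- and 25.5% in VP RFP+ cells. Luminal cells were higher for 23.3, 30.3, 26.0 and 30.5%, in the same order. The 36 pairs had no such floor and include Cdkn2a and Cdkn2b, so the shares are not directly comparable. Ccnd1 was higher in basal than luminal cells by 13.6-fold in VP RFP+, 5.09-fold in DLP RFP- and 4.68-fold in AP RFP- cells, but only 1.02-fold in AP RFP+ cells, where the runs overlapped. Cdkn1a was 14.3-fold higher in basal cells in the AP RFP- fraction and 2.32-fold in the AP RFP+ fraction. Cdk6 was higher in luminal cells of the AP RFP+ fraction (2.03-fold) and higher in basal cells of the AP RFP- fraction (3.56-fold). For these 3 genes AP RFP+ luminal cells were thus nearer to, or above, basal cells than AP RFP- luminal cells were. Cdk4 was higher in basal cells in all 6 populations, by 1.35- to 1.70-fold.

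The pathway around the members was followed in fixed lists, described by their counts. Over all genes tested, 13.5% were called higher and 11.9% lower in AP RFP+ than in AP RFP- luminal cells. For AP versus VP these shares were 7.64 and 8.61% in RFP- and 15.3 and 12.3% in RFP+ luminal cells. For the interaction they were 3.06 and 1.88%. In AP luminal cells, 15 of 26 RB and E2F genes were tested, with Rb1 (the retinoblastoma protein) higher in RFP+ cells (1.11) and Cks1b (a CDK-binding subunit) lower (-1.60), and a list median of 0.04. Of 22 S phase and mitosis genes 15 were tested and 3 were higher, namely the replicative helicase subunits Mcm6 (1.62) and Mcm7 (0.87) and Hmgb2 (0.96), with a median of 0.74 against 0.00 over all genes. Of 15 p53 targets 12 were tested, with Plk2 (2.91), Phlda3 (2.04) and Perp (0.94) higher and Gdf15 lower (-2.29), and a median of -0.05. The p53 targets thus moved in both directions. Of the 14 immediate early and heat shock genes 6 were higher, with Ier3 (1.90), Junb (1.44) and Atf3 (1.26) the largest, and a median of 0.72. Between AP and VP RFP- cells 4 of 9 tested p53 targets were lower in the AP, among them Phlda3 (-3.15), Perp (-1.40) and Bax (-1.30), and Gdf15 was higher (3.48). Of the 14 immediate early and heat shock genes 4 were also lower there, among them Btg2 (-1.42) and Atf3 (-1.09), and Egr1 was higher (1.27). In RFP+ cells of the AP and VP, 2 of 17 RB and E2F genes were higher in the AP (E2f5 1.08, Cdkn1c 0.87), 2 were lower (Cdkn2c -1.02, Cdk7 -0.91), and 0 of 20 S phase and mitosis genes passed by edgeR. The interaction called Cks1b (-1.58), Phlda3 (2.87), Plk2 (2.68) and Hspb1 (1.24).

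Genes whose level followed each member most closely were found over the 31 intact epithelial sums, among 4720 genes. The sums share libraries and fall into basal and luminal classes, so these correlations describe the populations. For Ccnd1 they were Sema5a (Pearson's r = 0.94), Tinagl1 (0.93) and Sbspon (0.92), and for Ccnd2 Gstt1 (0.92), Tspan5 (0.91) and Filip1l (0.88). For Cdkn1a they were Fam107b and Tnfrsf12a (both 0.92) and Cers5 (0.91). For Cdk6 they included Tnfrsf21 and Ikzf2 (both 0.83). The closest were Rps3, Prmt1 and Rnf187 (all 0.86) for Cdk4, Gnb2 (0.82) for Ccnd3 and Fbxo32 (0.72) for Cdkn1b.

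Castrated and intact cells were compared within run 2, the only run with castrated lobes kept apart, so values carry exact Poisson 95% intervals that cover counting error only and no test was possible. Cdkn1a was higher after castration in 5 of 6 populations, and in the other its direction depended on scaling, and the D cyclins and Cdk6 were lower in AP RFP+ luminal cells. In AP RFP+ luminal cells Cdkn1a was 337 CPM (319 to 355) in castrated and 88.5 CPM (75.3 to 103) in intact mice. In AP RFP- luminal cells it was 231 (199.6 to 265) against 16.2 CPM (12.2 to 21.1), a ratio of 14.2. The ratio was 2.40 in DLP RFP- luminal, 2.55 in AP RFP+ basal and 2.96 in VP RFP+ basal cells. VP RFP+ luminal cells were the exception, at 82.6 (72.0 to 94.3) against 102 CPM (93.4 to 111), with overlapping intervals, and this direction depended on scaling, since with all UMIs as library size they were 89.5 against 57.03 CPM. The exception also rests on run 2, since intact VP RFP+ luminal sums ranged from 37.5 to 102 CPM over runs 1 to 3 and run 2 was the highest.

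Ccnd1 in AP RFP+ luminal cells was 47.4 CPM (40.9 to 54.6) in castrated and 131 CPM (115 to 149) in intact mice, a ratio of 0.361. It was lower in basal cells too, with ratios of 0.452 in AP RFP+ and 0.256 in VP RFP+ cells, and its intervals overlapped in AP RFP-, DLP RFP- and VP RFP+ luminal cells. The castrated VP RFP+ basal value was 29.4 CPM (15.7 to 50.4) from 13 UMIs, and intact sums there ranged from 36.9 to 128 CPM over the runs. In AP RFP+ basal cells it was 65.1 CPM (51.8 to 80.6), against an intact range of 107 to 196 CPM. Ccnd2 in AP RFP+ luminal cells was 20.6 against 81.3 CPM. Over the intact runs this level ranged from 32.9 to 81.3 CPM, and run 2 was the highest. In run 2, 12 of 98 intact and 11 of 189 castrated AP RFP+ luminal cells lay in the cluster that held most intact VP luminal cells. Their part in the Ccnd2 difference was not tested. Ccnd2 in VP RFP+ luminal cells was 66.8 against 182 CPM. In AP RFP- luminal cells it was 54.2 in castrated against 21.5 CPM in intact mice, but all 46 castrated UMIs came from the 10 cells in the cluster that held most intact VP luminal cells of run 2, as 62 of 73 intact UMIs came from 21 cells of it, and the 35 castrated cells of the Pnliprp1- and Lpl-rich cluster had none. In AP RFP+ luminal cells Cdk6 was 21.8 against 53.1 CPM, Ccnd3 21.1 against 42.6 CPM and Cdkn1b 34.1 against 57 CPM (ratio 0.599). These and the Ccnd1 and Ccnd2 values were lower without overlap of counting intervals, and Cdkn1a was higher. The share of all genes without such overlap was not counted. By the 2-fold criterion, which Cdkn1b did not reach, 8.45% of genes with at least 20 CPM were lower there and 6.31% higher. Cdkn1b was 63.6 against 35.4 CPM in AP RFP- luminal cells. Lower Ccnd3 (34.3 against 54.1 CPM) and Cdk4 (37.0 against 56.6 CPM) in castrated VP RFP+ luminal cells turned to higher with all UMIs as library size.

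**Figure D4:**
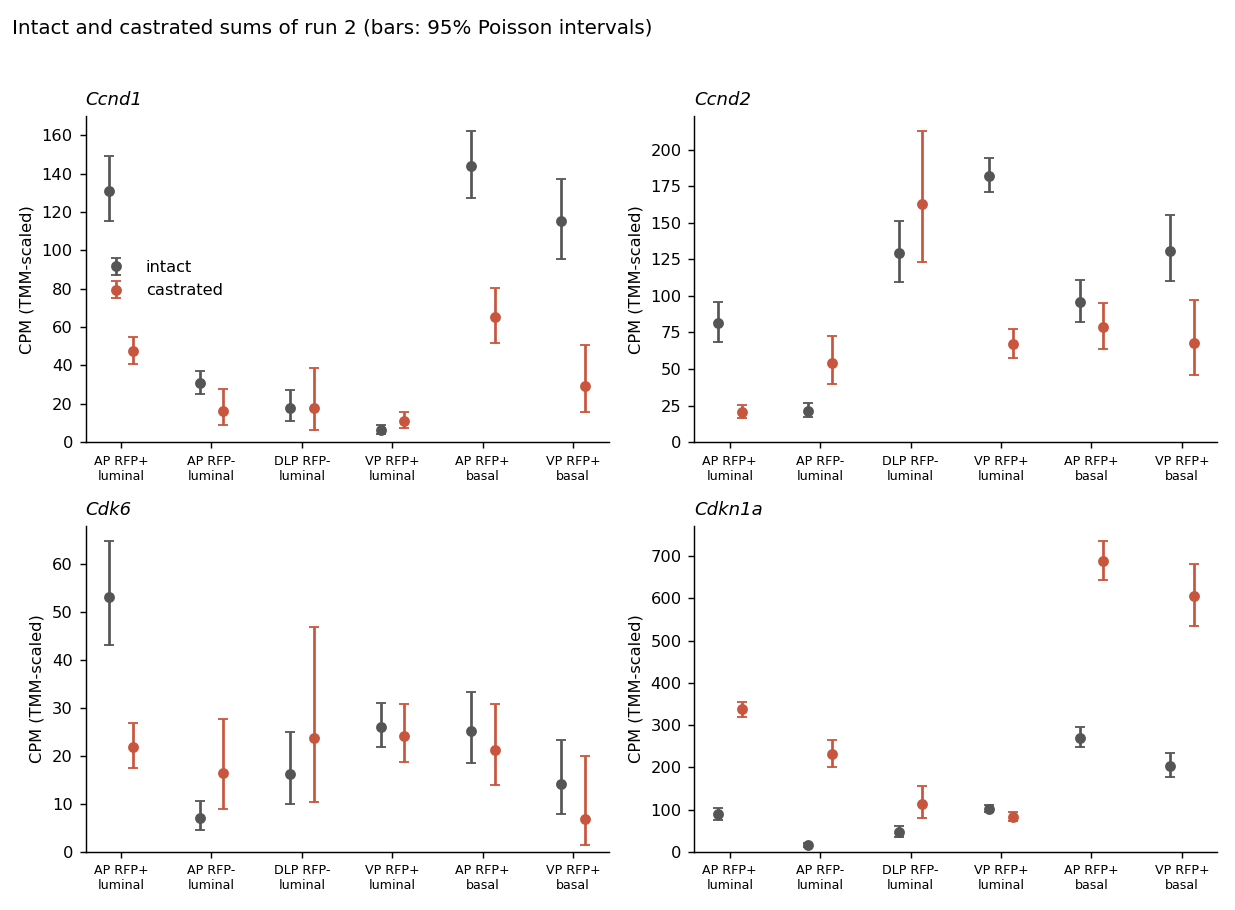
Ccnd1, Ccnd2, Cdk6 and Cdkn1a in castrated and intact cells of run 2 (CPM on TMM-scaled library sizes) for 6 populations, with exact Poisson 95% intervals. Cdkn1a was higher in castrated cells in every population but VP RFP+ luminal cells (82.6 against 102 CPM, and 89.5 against 57.03 CPM with all UMIs as library size), and Ccnd1 was lower in AP RFP+ luminal cells (47.4 against 131 CPM). The intact VP RFP+ luminal value of Cdkn1a in run 2 was the highest of runs 1 to 3 (37.5 to 102 CPM).

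Among genes with at least 20 CPM in either group, a difference of at least 2-fold was seen for 6.31% of genes higher and 8.45% lower in castrated AP RFP+ luminal cells, 8.27 and 8.29% in AP RFP-, 7.49 and 8.68% in DLP RFP- and 6.59 and 8.14% in VP RFP+ luminal cells. In basal cells these shares were 3.83 and 4.71% in the AP RFP+ and 9.26 and 8.59% in the VP RFP+ fraction. All 6 measured S phase and mitosis genes were lower by at least 2-fold in castrated AP RFP+ luminal cells (summed 123 against 419.8 CPM), as were 9 of 10 in VP RFP+ luminal cells (146 against 605 CPM). Over the 3 intact runs these sums were 249 to 419.8 CPM in AP RFP+ and 120.0 to 605 CPM in VP RFP+ luminal cells. Run 2 was thus the highest intact run in both, and the castrated VP sum lay within the intact range. Of the p53 targets 3 of 8 were higher in AP RFP+ and 3 of 7 in AP RFP- luminal cells, with none lower, whereas in VP RFP+ luminal cells 2 of 8 were higher and 3 lower (summed 268 against 470.0 CPM). Castrated luminal cells lay mostly in a Pnliprp1- and Lpl-rich and an Ang4- and Crym-rich cluster that held few intact cells, and castrated basal cells in a cluster with Cdkn1a among its leading genes and a median of 5459 UMIs per cell in the AP RFP+ fraction, against 9077 in intact cells. The immediate early and heat shock genes summed to 9018 CPM in castrated and 4943 CPM in intact AP RFP- luminal cells. Their part in the result was not tested. The 11 castrated RFP+ luminal cells of run 1, with lobes pooled, had 65.1 CPM (39.2 to 102) of Cdkn1a and 85.6 CPM (55.4 to 126) of Ccnd1. The lobes of those cells are not known, and Cdkn1a was below and Ccnd1 above the castrated AP RFP+ luminal values of run 2. Their Cdkn1a level lay within the range of intact RFP+ luminal sums of the AP (54.4 to 135 CPM) and VP (37.5 to 102 CPM). The intact sums of run 1 were the lowest of these, at 54.4 and 37.5 CPM. The higher Cdkn1a after castration thus rests on run 2.

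In UGS explants the prostatic-like epithelium was followed over 463, 453, 943 and 1968 cells at days 0, 1, 3 and 6, with 1 pool of explants per day and no test. Ccnd1 was 78.8 CPM (73.8 to 84.1), 125 (118 to 132), 366 (356.4 to 375.4) and 408 CPM (401 to 416) in turn, 5.18-fold higher at day 6 than at day 0. Most of the difference lay between days 1 and 3. Ccnd2 was 541, 919, 974 and 1076 CPM, with its main difference between days 0 and 1, whereas Ccnd3 was 188, 161, 105 and 109.7 CPM. The D cyclins thus differed in both direction and timing.

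Cdk4 (469, 415, 432 and 387 CPM) and Cdk6 (34.3, 47.6, 52.9 and 49.6 CPM) differed less over the culture. Cdkn1a was 181, 118, 90.6 and 91.2 CPM, and Cdkn1b was 28.8, 28.8, 46.5 and 60.3 CPM, so the CIP/KIP genes differed in opposite directions, to 0.503 and 2.10 times the day 0 level. These values leave out a Psca- and Krt4-rich cluster, described below, with 401 CPM of Cdkn1a on all UMIs and cells mostly of later days. Cdkn2b was 6.61, 5.21, 3.51 and 1.36 CPM, and Cdkn2a had 6, 3, 4 and 2 UMIs. At least 2-fold differences between days 6 and 0 were seen for 5.12% of genes higher and 4.46% lower, between days 1 and 0 for 1.71 and 1.06%, between days 3 and 1 for 1.19 and 1.44% and between days 6 and 3 for 0.679 and 0.543%. The 22 S phase and mitosis genes summed to 1734, 2189, 2824 and 2572 CPM, and none differed by 2-fold between successive days or between days 0 and 6.

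**Figure D5:**
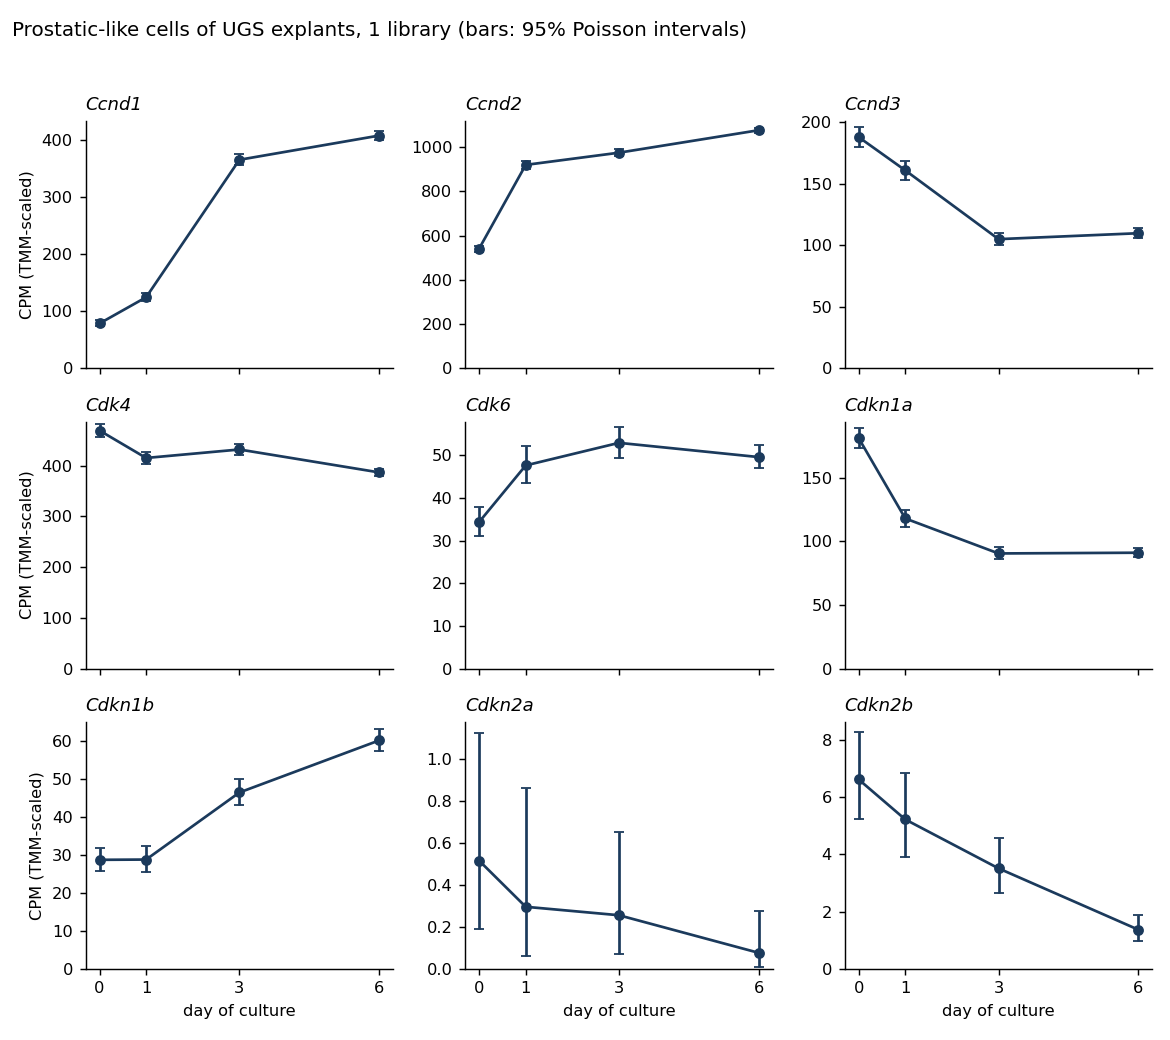
Levels of the 9 members (CPM on TMM-scaled library sizes, with exact Poisson 95% intervals) in prostatic-like cells of explants at days 0, 1, 3 and 6. Ccnd1 was 78.8 CPM at day 0 and 408 CPM at day 6, and Cdkn1a was 181 and 91.2 CPM.

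Within the prostatic-like explant cells the members marked different clusters, described here on all UMIs of a cluster and pooled over days (the 9 genes were left out of the clustering). Ccnd1 was highest, at 873 CPM, in a cluster led by replication genes such as Mcm3 and Hells, where Cdkn1a was 34.2 CPM, and low, at 74.2 CPM, in a Krt5- and Krt14-rich cluster, where Cdkn1a was 175 CPM. Ccnd2 was highest in a small cluster of 53 cells led by Apoe and Sostdc1 (3068 CPM). Cdkn1b was highest, at 79.6 CPM, in a cluster led by the mitotic genes Ube2c and Cenpa. Other explant classes had other levels. In mesonephric-like cells Ccnd1 was 331, 363, 376 and 674 CPM and Cdkn1a 417, 218, 185 and 76.6 CPM at days 0 to 6. The clusters within this class changed over the days. Clusters led by Gadd45b and by Dcdc2a held 88 and 106 cells at day 0, and a cluster led by Sct held 177 at day 6. Their Cdkn1a levels were 398, 311 and 45.0 CPM. The Dcdc2a- and Sct-led clusters had none of the class's markers among their 10 leading genes. The values by day therefore do not follow the same cells. A cluster of 202 cells led by Psca, Ly6d and Krt4 scored highest for the urothelium markers but had none of them among its 10 leading genes, so it is given no cell type name here and was not counted as prostatic-like. Its Cdkn1a level was 401 CPM, compared with 178 CPM in the 218 cells of a cluster led by the urothelium markers Upk3a and Foxq1, and Ccnd1 was 105 and 129 CPM. The Psca-led cells numbered 1, 24, 99 and 78 at days 0, 1, 3 and 6, so leaving them out bears mostly on the later days. The paper describes a cluster high in Krt4, Psca, Ly6d and Nupr1 within the developing prostatic epithelium. Whether it holds the same cells was not tested.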

How the data were processed

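The authors deposited raw UMI counts per gene and cell and MULTI-seq barcode counts per cell. Per the labels and the study's methods, reads were processed with Cell Ranger 3.1.0 on mm10 (GRCm38) and analysed in Seurat 3.1.5. From the deposited counts, adult cells with more than 750 and fewer than 7500 genes and under 10% mitochondrial UMIs were kept, and explant cells with more than 1000 genes and under 7.5%. Cells were assigned by the study's barcode thresholds. Cells positive for more than 1 barcode were removed as doublets, no doublet caller was run, and doublets within a population or with cells of the failed DLP RFP+ barcode remain.

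Cells were clustered per data set (30 principal components, 20 neighbours, Leiden) and classed by fixed markers, so class names may differ from the study's. Sums were tested with edgeR 4.0.16 (R 4.3.3; TMM, filterByExpr, quasi-likelihood, Benjamini-Hochberg over all genes tested, threshold 0.05), after a check on simulated data. That test gives no SE, so the SE shown is the absolute log2 fold change divided by the square root of its F statistic. DESeq2 1.42.0, the count filter, the classes, a stricter barcode share, the library size and each run were varied. The replicate is the run, 1 pool of mice in 1 library. The labels do not say whether runs used separate mice, so p-values measure the spread between runs. Sums of a run share its library, and same-run deviations correlated at 0.05 to 0.63, above 0.1 in all pairs but that of AP and VP RFP- luminal cells in run 2. The limit that a count of 0 allows was set at 3 counts. The text names all 9 members, the 3 genes of each list with the largest called change and the 3 genes most like each member, of which 1 is not reported here. The members and lists were chosen with earlier results of these data known, so no p-value is independent evidence.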

Additional observations from a re-analysis of the deposited data

Results flagged for a closer look

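Of the values in the report, 3 met the criterion of an effect that differed between groups by a test of the difference itself. The RFP+ minus RFP- difference of luminal cells was larger in the AP than in the VP by 3.76 for Ccnd1, 2.40 for Cdk6 and 2.82 for Cdkn1a (log2, edgeR interaction of lobe and RFP, adjusted p = 4.95e-04, 0.0112 and 0.0453). Ccnd1 was higher in RFP+ cells in 3 of 3 runs of the AP (150.1, 131 and 159 against 42.1, 30.7 and 33.2 CPM) and lower in 3 of 3 runs of the VP (10.6, 6.22 and 3.81 against 18.4, 25 and 11.9 CPM).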

How the results depend on the processing

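Counts of members past the threshold, leaving out each run in turn, ranged from 3 to 4 of the 5 called for RFP in AP luminal cells, 0 to 0 of 0 for RFP in VP luminal and in AP basal cells, 1 to 2 of 3 for RFP- AP versus VP, 0 to 1 of 1 for RFP- AP versus DLP, 1 to 3 of 3 for RFP+ AP versus VP, 0 to 0 of 0 for RFP+ basal cells and 0 to 3 of 3 for the difference of RFP effects. The pairs of member and population in which basal and luminal runs did not overlap numbered 14, and 17 to 23 without 1 run (23 without run 1), where fewer runs make overlap rarer.

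Without the count filter 1 member passed for RFP in VP luminal cells (main count 0), 5 for RFP- AP versus VP (main 3) and 3 for RFP- AP versus DLP (main 1). With the run as a replicate block 1 passed for RFP in VP luminal cells, 3 for RFP- AP versus DLP and 2 in RFP+ basal cells (main 0), and the block ended no call. Requiring that a cell's barcode hold at least 80% of its barcode counts left 1 AP RFP+ luminal sum and 1 call (Cdkn1a) for RFP in AP luminal cells, 0 for RFP- AP versus DLP and 1 for the difference of RFP effects (Ccnd1). RFP+ basal cells could not be fitted under it. The cause of these changes was not tested, other than the fewer samples.

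Direction reversed in 7 values among those that passed in some setting or whose intervals or runs did not overlap. With all UMIs as library size, chosen after seeing the data, these were the basal over luminal ratio in VP RFP+ cells of Cdk6 (0.06, log2) and Cdkn1b (0.29) and the castrated over intact ratio in VP RFP+ luminal cells of Ccnd3 (0.30) and Cdk4 (0.34). Cdkn1a (-0.30 to 0.65) and Cdk6 (-0.11 to 0.84), whose intervals overlapped, also turned there, and Cdkn1b for RFP- AP versus VP turned in mean level (33.5 against 27.0 CPM). With the stricter barcode share they were Ccnd1 for RFP- AP versus VP (-0.07) and Ccnd2 from explant day 1 to 3 (-0.01). Over all assigned explant cells, Ccnd1 from day 0 to 1 was -0.04. Another 32 member differences passed in no setting, and 12 of them changed sign in at least 1.

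Calls over all genes moved as well: 31 to 3248 (main 2259) for RFP in AP luminal cells, 0 to 136 (24) in VP luminal and 0 to 5 (0) in AP basal cells, 282 to 1818 (1178) for RFP- AP versus VP, 2 to 705 (89) for AP versus DLP, 448 to 3771 (2642) for RFP+ AP versus VP, 0 to 526 (21) for RFP+ basal cells and 5 to 1189 (480) for the difference of RFP effects. Depth limits Cdkn2a and Cdkn2b, which no comparison could test.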
